A study of Mus musculus with 25 samples.

Results

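The genes described here build the extracellular matrix of the lung. They are 38 listed symbols: 7 fibrillar collagens, 7 genes of basement membranes (6 collagen chains and Fras1), 7 of elastic fibres, 3 cross-linking enzymes, 3 chains of type VI collagen, 4 fibril-associated and network collagens, 4 adhesive and matricellular glycoproteins and 3 small leucine-rich proteoglycans. For each symbol the probe set with that symbol alone and the highest mean over all arrays was taken, which gave a measurement for 36 of the 38, among 18193 genes with such a probe set. Fbn1 had no probe set in the annotation used, both probe sets of Loxl2 also carry Gm21451, and neither gene was analysed here. All 36 measured genes passed the filter on low values, which left 12937 genes to be tested.

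Fibrillar collagens assemble in the extracellular space into the cables that give tissue its tensile strength, and lysyl oxidases join their chains by covalent bonds. Basement membranes are sheets of type IV collagen networks, laminins and proteoglycans under epithelium and endothelium, and in the alveolus they lie in the barrier across which gas diffuses. Elastic fibres, a core of elastin with microfibrils, fibulins and emilins, let the lung recoil after each breath. Excess deposition of fibrillar collagen is the hallmark of lung fibrosis, a late injury after thoracic irradiation.

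Total RNA of whole lung from 25 female wild-type C57BL/6J mice (14 to 17 weeks old, 20 to 25 g) was measured, 1 array a mouse. Irradiated mice had a single dose of 25 Gy to the thorax, in 4 groups of 3: with (S)-FTY-phosphonate (radiation+fTyS), with SEW-2871 (radiation+SEW), with FTY720 (radiation+FTY), and with no compound (radiation). Unirradiated mice had fTyS, SEW or FTY alone (n = 3 each) or phosphate-buffered saline (control, n = 4). Each compound was injected into the peritoneum at 0.1 mg/kg, 2 times a week; all bind or yield ligands of receptors for sphingosine 1-phosphate. The labels give neither the time from irradiation to collection nor an injection of vehicle in the mice irradiated without a compound. Levels are log2(signal + 16), group values are means ± SD, and differences are log2 fold changes ± SE of 1 limma fit over all 25 arrays. A gene was called where the p of this fit, adjusted over all 12937 genes, was at most 0.05. Calls that other settings ended are given with the gene. Of the calls that other settings added, only a part is given. The median half-width of the 95% interval of a member's difference was 0.27 against control and 0.29 between groups of 3.

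Surfactant and other alveolar genes were high on every array, with Sftpc between 13.22 and 13.44, and the cartilage collagen Col2a1, between 4.94 and 5.49, was near the bottom of the scale. The array labelled control replicate 4 went against its label: the mean of 17 p53 target genes was 10.02 on it, against 9.84 to 10.07 on the 12 irradiated arrays and 9.21 to 9.43 on the other 12 unirradiated ones. Comparisons with control are therefore given with and without it. The lungs also differed within groups in RNA of tissue that lies next to the lung. The mean of 7 adipocyte genes ran from 6.49 to 10.63 and that of 12 skeletal muscle genes from 6.32 to 12.28 over the arrays, whereas no probe set was listed at 0.

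Some members lie next to each other in the genome, and these pairs varied together within groups, as did pairs on different chromosomes. By the RefSeq order of genes on GRCm38.p6, Col3a1 and Col5a2 are neighbours on chromosome 1, as are Col4a4 and Col4a3. Col6a2 and Col6a1, and Dcn and Lum, are neighbours on chromosome 10, and Col4a1 and Col4a2 on chromosome 8. The starts of Col4a1 and Col4a2 lie 21 bases apart on opposite strands. Their RefSeq windows, from 250 bases before to 50 after the start, are at chr8:11312777-11313076 on the minus strand and chr8:11312555-11312854 on the plus strand. They are shown because both genes start within the same stretch, where each is transcribed through the start of the other. Capitals mark the 78 bases, chr8:11312777-11312854, that both windows hold, each read on its own strand.
Col4a1: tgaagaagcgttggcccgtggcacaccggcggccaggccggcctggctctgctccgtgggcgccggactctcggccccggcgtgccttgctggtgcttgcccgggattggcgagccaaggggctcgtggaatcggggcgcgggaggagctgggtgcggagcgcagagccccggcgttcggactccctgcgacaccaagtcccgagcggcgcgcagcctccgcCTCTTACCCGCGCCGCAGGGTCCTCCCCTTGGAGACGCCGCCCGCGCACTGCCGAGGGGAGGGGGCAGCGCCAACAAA
Col4a2: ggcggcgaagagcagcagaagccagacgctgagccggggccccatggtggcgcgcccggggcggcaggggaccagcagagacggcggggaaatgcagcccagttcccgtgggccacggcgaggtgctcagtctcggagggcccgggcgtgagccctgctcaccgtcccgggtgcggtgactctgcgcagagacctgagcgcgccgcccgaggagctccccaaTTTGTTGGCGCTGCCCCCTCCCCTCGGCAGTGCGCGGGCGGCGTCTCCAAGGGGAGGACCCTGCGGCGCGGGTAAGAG

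The windows of Col8a1, at chr16:57754688-57754987 on the minus strand, and Col27a1, at chr4:63215162-63215461 on the plus strand, are shown because each was higher in radiation+SEW than in both radiation and SEW. Capitals mark each match to a GC box, GGGCGG on either strand.
Col8a1: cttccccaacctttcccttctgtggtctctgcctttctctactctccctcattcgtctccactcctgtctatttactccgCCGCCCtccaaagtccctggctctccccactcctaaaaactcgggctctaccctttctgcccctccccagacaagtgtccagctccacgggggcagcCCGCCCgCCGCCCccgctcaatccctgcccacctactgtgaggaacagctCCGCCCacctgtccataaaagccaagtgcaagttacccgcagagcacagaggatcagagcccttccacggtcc
Col27a1: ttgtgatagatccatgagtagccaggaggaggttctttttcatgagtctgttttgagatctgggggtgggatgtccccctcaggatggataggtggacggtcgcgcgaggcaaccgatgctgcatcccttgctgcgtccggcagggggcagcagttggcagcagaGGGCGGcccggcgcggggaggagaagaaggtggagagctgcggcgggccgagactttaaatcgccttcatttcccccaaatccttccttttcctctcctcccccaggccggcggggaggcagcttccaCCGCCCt
The letters GGGCGG occur on either strand in 35.7% of all 32851 windows, and in a window of 17 of the 25 members that have one. TATAAA was found in 13.6% of all windows and in those of 3 members, CCAAT in 37.4% and in 9, and TGANTCA, the AP-1 site, in 7.81% and in 1. Such matches describe the letters and show no binding.

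Radiation alone changed few of these genes, and the fibrillar collagens were not among them. Against control, 2 of 36 members were called, against 4.4% of all genes: Emilin2 rose and Fras1 fell. Of the 7 fibrillar collagens 1 had a difference above 0, with a median of -0.20. The median over the 36 members was -0.08, against -0.01 over all genes. Without control replicate 4 there were 4 calls, with Fn1 and Lox also higher. The share over all genes in that fit is not given here, so these 4 calls cannot be set against it. A fit with the replicate number as a block gave the same 4. Control replicate 4 is the only array with that number, so the block also takes it out of the difference and is no separate check. With the mean of all probe sets, Fn1 passed with control replicate 4 kept (0.59 ± 0.16, adjusted p = 0.0353). In whole lung RNA, fewer cells of a type and less RNA per cell cannot be told apart.

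With SEW added to radiation, 3 collagens and Fras1 were higher than with radiation alone, and Emilin2 was lower with SEW or fTyS. Against radiation, radiation+SEW had 5 members called (2.48% of all genes): Fras1, Col8a1, Col6a2 and Col27a1 were higher and Emilin2 was lower. Radiation+fTyS had 1 call (0.858% of all genes), Emilin2, which was lower, and radiation+FTY had 1 (3.02% of all genes), Fras1, which was higher. All 7 fibrillar collagens had a difference above 0 with fTyS (median 0.25) and with SEW (median 0.44), and 5 of 7 with FTY (median 0.05). Over the 36 members the medians were 0.19 with fTyS, 0.26 with SEW and 0.0009 with FTY, against 0.01, 0.03 and 0.03 over all genes. These comparisons share the 3 radiation arrays, so their likeness is not independent.

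In unirradiated lung, SEW lowered 5 of 36 members, where 14.6% of all genes were called and 10.8% were called lower: Col1a1, Fras1, Col12a1, Loxl1 and Col4a4. FTY lowered Col1a1 alone (2.73% of all genes called). With fTyS limma called no member (0.178% of all genes), and 4 of 36 had an unadjusted p of at most 0.05, against 15% of all genes. Without control replicate 4 the limma count with SEW was again 5, but not of the same genes. Col4a4 was no longer called (adjusted p = 0.0771), and Col18a1 was called as higher (0.39 ± 0.12, adjusted p = 0.0392). The counts were then 0 with FTY, where Col1a1 had an adjusted p of 0.0662, and 0 with fTyS. In that fit 6 members with FTY and 3 with fTyS had an unadjusted p of at most 0.05. With all arrays kept, 18.5% and 15% of all genes did. The shares over all genes without control replicate 4 are not given here, so the counts of that fit cannot be set against them. These comparisons share the control arrays.

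Between irradiated and unirradiated lung under the same compound, collagens of several roles were higher with radiation under SEW. With SEW, 12 of 36 members were called and all 12 were higher in radiation+SEW than in SEW, where 17.7% of all genes were called and 13.8% were called higher. They were Col1a1, Col3a1, Col5a2, Col27a1, Col6a1, Col6a2, Col8a1, Col16a1, Fras1, Loxl1, Tnc and Sparc. Radiation+FTY against FTY had 6 members called (14.1% of all genes): Emilin2, Col8a1, Col16a1, Col6a1 and Col27a1 were higher and Col4a4 was lower; with median centring 4 were called and with quantile normalization 3, all higher. The 6 of 36 are 16.7%, close to the share of all genes, and 2 to 3 members were called without any 1 of these arrays. Radiation+fTyS against fTyS had 1 member called (0.456% of all genes), Col27a1, which was higher, and a replicate block added Col5a2 (0.56 ± 0.12, adjusted p = 0.0293). The medians over members were 0.17 with fTyS, 0.22 with SEW and 0.07 with FTY, against -0.00078, 0.04 and 0.04 over all genes. Of the listed fibroblast genes, only Pdgfrb and Meox2 were called lower with SEW than in control (-0.45 ± 0.09 and -0.37 ± 0.10). Only these were called higher in radiation+SEW than in SEW (0.46 ± 0.10 and 0.52 ± 0.11). With FTY both were called in the same directions. The mean of the fibroblast list was 9.88 to 10.14 with SEW, 10.07 to 10.22 with radiation+SEW and 9.91 to 10.12 in control. The part of fibroblasts in these results was not tested.

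**Figure D1:**
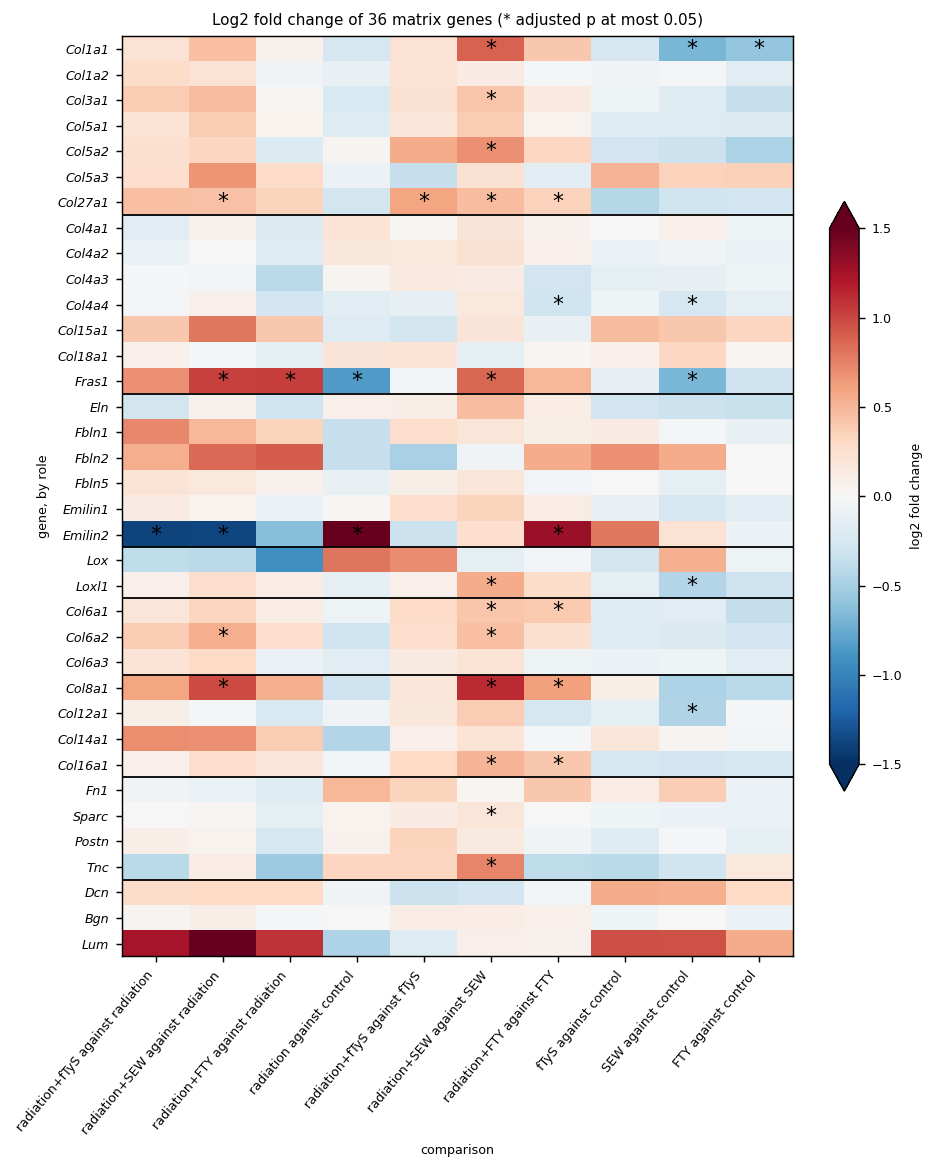
Log2 fold change (colour) of the 36 measured matrix genes (rows, by role) in 10 comparisons (columns), named with the group on top of the fold change first. Colours saturate at the ends of the scale bar. Stars mark an adjusted p of at most 0.05; the column of radiation+SEW against SEW holds 12 stars, and that of fTyS against control holds none.

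Among the fibrillar collagens, Col1a1, which encodes the main chain of type I collagen, was lower with SEW alone and FTY alone than in control, and higher in radiation+SEW than in SEW. Col1a1 levels were 9.76, 9.75 and 9.66 with radiation+fTyS, 10.13, 9.90 and 9.85 with radiation+SEW, 9.79, 9.26 and 9.68 with radiation+FTY and 9.45, 9.49 and 9.59 with radiation alone. Without radiation, Col1a1 stood at 9.49, 9.46 and 9.56 with fTyS, 9.13, 8.74 and 9.35 with SEW, 9.22, 9.35 and 8.96 with FTY and 9.46, 9.79, 9.80 and 9.99 in control. All SEW and all FTY arrays lay below all 4 control arrays, and all radiation+SEW arrays lay above every SEW array. The difference was -0.69 ± 0.14 (adjusted p = 0.00412) for SEW against control and 0.89 ± 0.15 (adjusted p = 0.000803) for radiation+SEW against SEW. The SEW value without control replicate 4 was -0.61 ± 0.14, adjusted p = 0.0114, and the SEW call ended with a fit of only the arrays compared (adjusted p 0.0521). For FTY against control it was -0.58 ± 0.14 (adjusted p = 0.0306), a call that ended without control replicate 2, 3 or 4, or FTY replicate 1 or 3 (adjusted p 0.0662 to 0.156) or under 4 other settings (adjusted p 0.0776 to 0.198). Against radiation, Col1a1 differed by 0.45 ± 0.15 (adjusted p = 0.116) with radiation+SEW, which was not called, although these groups did not overlap. Its partner chain Col1a2 was not called. With the mean of all its probe sets it passed for SEW against control (-0.38 ± 0.11, adjusted p = 0.0309) and radiation+SEW against SEW (0.43 ± 0.12, adjusted p = 0.0183). Col1a2 levels were 12.54, 12.61 and 12.48 with radiation+fTyS, 12.55, 12.52 and 12.39 with radiation+SEW, 12.28, 11.98 and 12.38 with radiation+FTY and 12.23, 12.22 and 12.35 with radiation alone. Without radiation, Col1a2 stood at 12.38, 12.39 and 12.24 with fTyS, 12.33, 12.33 and 12.43 with SEW, 12.31, 12.37 and 12.01 with FTY and 12.21, 12.48, 12.35 and 12.50 in control. The radiation+fTyS and radiation+SEW arrays of Col1a2 were all above the radiation arrays, by 0.27 ± 0.10 and 0.22 ± 0.10 on average.

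Col3a1 and Col5a2, neighbours on chromosome 1, encode type III collagen and a chain of type V collagen, which starts fibrils. Col3a1 levels were 12.71, 12.76 and 12.55 with radiation+fTyS, 12.84, 12.81 and 12.60 with radiation+SEW, 12.46, 12.01 and 12.47 with radiation+FTY and 12.37, 12.19 and 12.31 with radiation alone. Without radiation, Col3a1 stood at 12.57, 12.57 and 12.19 with fTyS, 12.36, 12.12 and 12.51 with SEW, 12.29, 12.31 and 11.89 with FTY and 12.44, 12.56, 12.39 and 12.66 in control. Every radiation+fTyS and radiation+SEW array exceeded the radiation arrays, while radiation+FTY overlapped them. Radiation+SEW exceeded SEW by 0.42 ± 0.14 (adjusted p = 0.0394), and this call ended without SEW replicate 1 or 2, or radiation+SEW replicate 1, 2 or 3 (adjusted p 0.053 to 0.168) or with no filter (adjusted p 0.0519). Col5a2 levels were 10.65, 10.80 and 10.48 with radiation+fTyS, 10.78, 10.68 and 10.72 with radiation+SEW, 10.33, 9.95 and 10.31 with radiation+FTY and 10.47, 10.25 and 10.49 with radiation alone. Without radiation, Col5a2 stood at 10.21, 10.17 and 9.86 with fTyS, 10.11, 9.93 and 10.08 with SEW, 9.97, 10.09 and 9.62 with FTY and 10.20, 10.20, 10.15 and 10.90 in control. Control replicate 4 was far above the other control arrays, and the radiation+SEW arrays were all above the SEW arrays. That difference was 0.69 ± 0.17 (adjusted p = 0.00821). With the mean of all probe sets Col5a2 was also lower in SEW than in control (-0.43 ± 0.14, adjusted p = 0.0451).

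Col27a1, a minor fibrillar collagen best known from cartilage, was higher with radiation and a compound than with that compound alone, for each of the 3. Col27a1 levels were 9.20, 9.45 and 9.38 with radiation+fTyS, 9.21, 9.41 and 9.40 with radiation+SEW, 9.32, 9.23 and 9.15 with radiation+FTY and 8.83, 8.90 and 8.96 with radiation alone. Without radiation, Col27a1 stood at 9.06, 8.56 and 8.63 with fTyS, 8.87, 8.86 and 8.90 with SEW, 8.99, 8.90 and 8.79 with FTY and 8.92, 9.26, 9.29 and 9.23 in control. Each of these 9 arrays lay above the 3 radiation arrays and above the arrays of its own compound, and they overlapped the control arrays. Against control, Col27a1 was not called with any compound alone. Control replicate 1 was the lowest control array. Without it, Col27a1 was lower than control with fTyS (-0.51 ± 0.10), SEW (-0.38 ± 0.10) and FTY (-0.37 ± 0.10). The adjusted p of that fit was 0.0301, 0.0153 and 0.0435 in this order. Against the compound alone the difference was 0.60 ± 0.11 (adjusted p = 0.034) with fTyS, 0.46 ± 0.11 (adjusted p = 0.00879) with SEW and 0.34 ± 0.11 (adjusted p = 0.0463) with FTY. Against radiation it was 0.44 ± 0.11 (adjusted p = 0.0417) with SEW, and it was not called with fTyS (0.45 ± 0.11, adjusted p = 0.0618) or FTY (0.34 ± 0.11, adjusted p = 0.088). With muscle and adipocyte covariates it passed with fTyS (0.44 ± 0.10, adjusted p = 0.0311). The call against fTyS ended without fTyS replicate 2 or 3, or radiation+fTyS replicate 3 (adjusted p 0.0805 to 0.116) or with the mean of all probe sets or a fit of only the arrays compared (adjusted p 0.06 to 0.33). The call against FTY ended without any 1 of the 6 arrays (adjusted p 0.055 to 0.148) and under 5 other settings (adjusted p 0.0519 to 0.0803). The call against radiation ended without any 1 of the 6 arrays (adjusted p 0.062 to 0.161) and under 6 other settings (adjusted p 0.0536 to 0.0648). Of the cartilage genes, Matn1 was at 4.66 to 5.72 and Cnmd at 4.20 to 6.33 over all arrays. Acan, at 6.65 to 7.49, and Chad, at 7.44 to 9.92, were the only listed cartilage genes above the filter. Chad was called lower in radiation than in control (-1.23 ± 0.34, adjusted p = 0.0447). The other type V chains were not called: Col5a1 differed by -0.20 to 0.38 and Col5a3 by -0.35 to 0.66 over the 10 comparisons. With muscle and adipocyte covariates, Col5a1 passed for SEW against control (-0.38 ± 0.12, adjusted p = 0.0424) and radiation+SEW against SEW (0.49 ± 0.12, adjusted p = 0.00804). In a fit of only the arrays compared it passed for radiation+SEW against SEW (0.38 ± 0.10, adjusted p = 0.0449).

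**Figure D2:**
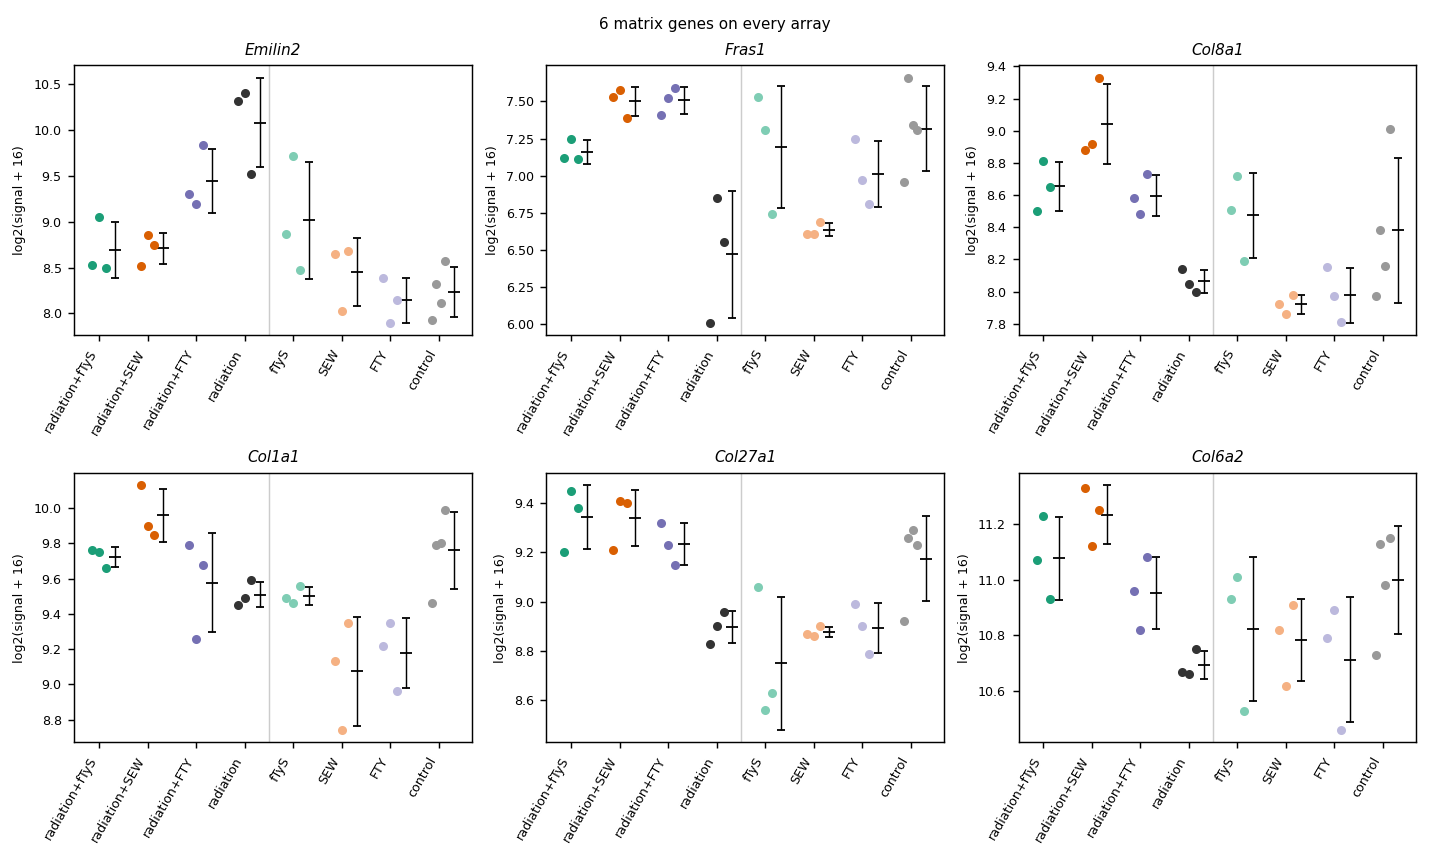
Level, log2(signal + 16), of 6 matrix genes on every array (points), with the mean and SD of each group (bars beside the points), for the 4 irradiated groups left of the line and the 4 unirradiated groups right of it. Every axis has its own range; for Col27a1 all arrays of the 3 groups with radiation and a compound lie above the radiation arrays, and for Emilin2 the radiation arrays are above the control arrays.

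Fras1, an extracellular protein that anchors epithelium to its basement membrane in the embryo, was lower with radiation alone and with SEW alone than in control, and was higher in radiation+SEW than in either. Fras1 levels were 7.12, 7.25 and 7.11 with radiation+fTyS, 7.53, 7.58 and 7.39 with radiation+SEW, 7.41, 7.52 and 7.59 with radiation+FTY and 6.01, 6.85 and 6.55 with radiation alone. Without radiation, Fras1 stood at 7.53, 7.31 and 6.74 with fTyS, 6.61, 6.61 and 6.69 with SEW, 7.25, 6.97 and 6.81 with FTY and 6.96, 7.66, 7.34 and 7.31 in control. All 9 arrays with radiation and a compound lay above the 3 radiation arrays, which lay below all control arrays, as did the 3 SEW arrays. Radiation against control differed by -0.85 ± 0.19 (adjusted p = 0.0108), a fold of 0.56, and SEW against control by -0.68 ± 0.19 (adjusted p = 0.0201). Without control replicate 4 these values were -0.85 ± 0.20, adjusted p = 0.0151, and -0.69 ± 0.20, adjusted p = 0.0328. Against radiation the difference was 1.03 ± 0.20 (adjusted p = 0.012) with radiation+SEW and 1.04 ± 0.20 (adjusted p = 0.0129) with radiation+FTY, a fold of 2.04 and 2.05. With radiation+fTyS it was 0.69 ± 0.20 (adjusted p = 0.112) and was not called. Radiation+SEW exceeded SEW by 0.86 ± 0.20 (adjusted p = 0.00618). Radiation replicate 1 was the lowest array, and without it the calls for radiation against control (adjusted p = 0.108), radiation+SEW against radiation (0.0803) and radiation+FTY against radiation (0.0584) ended. The call for SEW against control ended without control replicate 2 or 3, or SEW replicate 1, 2 or 3 (adjusted p 0.0506 to 0.0795). In a fit of only the arrays compared, the calls for radiation against control (adjusted p = 0.135), radiation+SEW against radiation (0.0711) and radiation+FTY against radiation (0.0968) ended, the last also with muscle and adipocyte covariates (0.86 ± 0.20, adjusted p = 0.0516). Adipocyte genes, whose mean was 8.71 to 10.37 with radiation+FTY and 6.94 to 7.83 with radiation, correlated with Fras1 within groups (r = 0.48, rho = 0.56, adjusted p = 0.0313 and 0.00978). Without the 2 farthest arrays r was 0.52. These p-values come from permutations that tend to make them too small, as described below with the other correlations.

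Mesothelial genes, which mark the lining of the pleura, were higher in 2 of the comparisons where Fras1 was higher. Of 10 mesothelial genes, 3 were higher in radiation+SEW and 7 in radiation+FTY than in radiation, whereas in radiation against control 1 was lower and in SEW against control 1 was higher. No mesothelial gene was called in radiation+SEW against SEW, where Fras1 was also higher. In radiation+FTY against FTY, Upk3b, Lrrn4, Bnc1, Rspo1 and Upk1b were higher, and Fras1 was not called. The mean of the 10 was 9.39 to 9.50 with radiation+SEW, 9.56 to 9.86 with radiation+FTY, 8.72 to 9.55 with radiation+fTyS and 8.71 to 8.90 with radiation. Their summed signal was 8676 to 9412, 9248 to 11352, 6100 to 9356 and 5787 to 6497 in the same groups. All 10 had levels above the filter, and the part of these cells in the Fras1 result was not tested. A dimmer probe set of Fras1, with a mean of 5.65, differed by -0.12 for radiation+SEW and by 0.58 for radiation+FTY against radiation.

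Of the 4 type IV collagen chains among the members, which form the network of the basement membrane, Col4a4 alone was called. Col4a1 levels were 12.21, 11.96 and 12.12 with radiation+fTyS, 12.36, 12.32 and 12.31 with radiation+SEW, 12.09, 12.00 and 12.09 with radiation+FTY and 12.41, 12.15 and 12.24 with radiation alone. Without radiation, Col4a1 stood at 12.15, 12.07 and 12.00 with fTyS, 12.12, 12.18 and 12.11 with SEW, 12.11, 12.13 and 11.75 with FTY and 12.21, 11.83, 11.93 and 12.30 in control. Radiation overlapped control, and Col4a1 was not called. Col4a2 levels were 12.19, 11.91 and 12.09 with radiation+fTyS, 12.15, 12.13 and 12.23 with radiation+SEW, 11.87, 12.01 and 12.04 with radiation+FTY and 12.27, 12.07 and 12.15 with radiation alone. Without radiation, Col4a2 stood at 12.01, 11.82 and 11.88 with fTyS, 11.94, 12.01 and 11.89 with SEW, 11.95, 12.02 and 11.69 with FTY and 12.01, 11.76, 11.98 and 12.22 in control. As for Col4a1, control replicate 4 was the highest control array, and the -0.20 to 0.23 spanned by the 10 differences held no call. In a fit of only the arrays compared, both were higher in radiation+SEW than in SEW, Col4a1 by 0.19 ± 0.04 (adjusted p = 0.0199) and Col4a2 by 0.23 ± 0.05 (adjusted p = 0.026). Col4a4, a chain of the alveolar and glomerular basement membrane, was lower with radiation+FTY. Col4a4 levels were 11.42, 11.06 and 11.30 with radiation+fTyS, 11.38, 11.34 and 11.38 with radiation+SEW, 10.97, 10.99 and 11.05 with radiation+FTY and 11.21, 11.36 and 11.31 with radiation alone. Without radiation, Col4a4 stood at 11.35, 11.31 and 11.48 with fTyS, 11.16, 11.37 and 11.08 with SEW, 11.36, 11.35 and 11.22 with FTY and 11.59, 11.26, 11.51 and 11.46 in control. The radiation+FTY arrays lay below all FTY and all radiation arrays, and SEW overlapped control. Radiation+FTY differed from FTY by -0.30 ± 0.09 (adjusted p = 0.0297) and SEW from control by -0.25 ± 0.08 (adjusted p = 0.0495). The first call ended without FTY replicate 1 or 2, or radiation+FTY replicate 1 or 2 (adjusted p 0.0764 to 0.0966), and with quantile normalization, median centring or the mean of all probe sets (adjusted p 0.0551 to 0.477); with probe sets averaged the value was -0.13. The second ended without control replicate 1, 3 or 4, or SEW replicate 1 or 3 (adjusted p 0.0771 to 0.218), and under 8 other settings (adjusted p 0.05002 to 0.199). With muscle and adipocyte covariates the second value was -0.13 (adjusted p = 0.199). Col4a4 fell with the adipocyte genes within groups (r = -0.72), and their mean was 7.81 to 10.59 with SEW and 6.69 to 8.71 in control. Its neighbour Col4a3 differed by -0.41 ± 0.13 (adjusted p = 0.0764) between radiation+FTY and radiation, which was not called. With probe sets averaged Col4a3 was lower in radiation+FTY than in FTY (-0.51 ± 0.16, adjusted p = 0.0494). Col15a1 (-0.27 to 0.79) and Col18a1 (-0.14 to 0.31), collagens of basement membranes that carry glycosaminoglycan chains, had no call in the 10 comparisons. With covariates Col15a1 was higher in radiation+SEW than in SEW (0.49 ± 0.18, adjusted p = 0.0486). Col18a1 was higher with SEW than in control without control replicate 4 (0.39 ± 0.12, adjusted p = 0.0392).

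**Figure D3:**
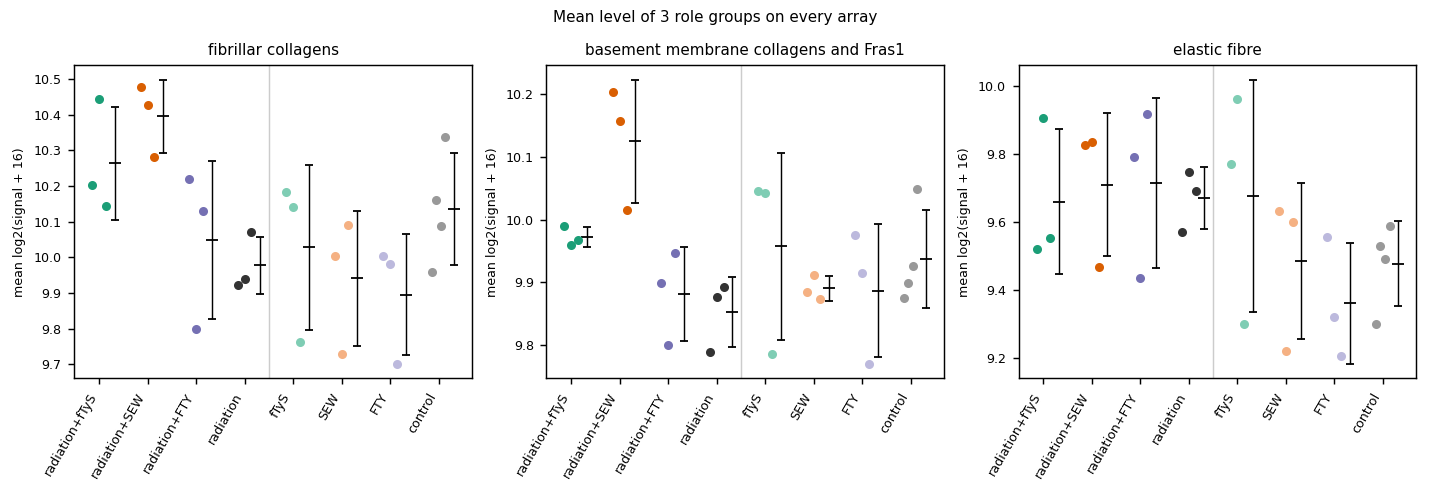
Mean level, log2(signal + 16), of the fibrillar collagens, the basement membrane genes and the measured elastic fibre genes on every array (points), with group mean and SD. Each axis has its own range; the 3 radiation+SEW arrays, at 10.28 to 10.48 for the fibrillar collagens and 10.02 to 10.20 for the basement membrane genes, lie above the radiation arrays.

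Of the 6 measured elastic fibre members, Emilin2 alone was called. It encodes an elastin microfibril interface protein. Emilin2 levels were 8.53, 9.05 and 8.50 with radiation+fTyS, 8.52, 8.86 and 8.75 with radiation+SEW, 9.30, 9.19 and 9.84 with radiation+FTY and 10.32, 10.41 and 9.52 with radiation alone. Without radiation, Emilin2 stood at 8.87, 9.72 and 8.47 with fTyS, 8.65, 8.03 and 8.68 with SEW, 8.39, 7.90 and 8.15 with FTY and 7.93, 8.32, 8.11 and 8.57 in control. The radiation arrays lay above all control arrays and above all arrays of radiation+fTyS and radiation+SEW, and overlapped radiation+FTY. Radiation against control differed by 1.86 ± 0.27 (adjusted p = 0.00046), a fold of 3.62, and without control replicate 4 by 1.97 ± 0.29, adjusted p = 0.000275. Against radiation, the difference was -1.39 ± 0.29 (adjusted p = 0.0258) with radiation+fTyS, -1.38 ± 0.29 (adjusted p = 0.0166) with radiation+SEW and -0.64 ± 0.29 (adjusted p = 0.189) with radiation+FTY, the last without a call. The call with fTyS ended without radiation replicate 1 or 2, or radiation+fTyS replicate 1 or 3 (adjusted p 0.102 to 0.131) and with a fit of only the arrays compared (adjusted p 0.273). The call with SEW ended without radiation replicate 1 or 2, or radiation+SEW replicate 1 or 3 (adjusted p 0.0597 to 0.0962) and with a fit of only the arrays compared (adjusted p 0.0528). Radiation+FTY exceeded FTY by 1.30 ± 0.29 (adjusted p = 0.00679).

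Neutrophil genes, and monocyte and macrophage genes in part, moved with Emilin2 between groups. Of 7 neutrophil genes tested, all 7 rose in radiation against control, and 7 fell in radiation+SEW, 5 in radiation+fTyS and 2 in radiation+FTY against radiation. In radiation+FTY against FTY, 5 of the 7 rose. The summed signal of the 9 neutrophil genes measured was 3864 to 5947 with radiation+fTyS, 1830 to 7788 with radiation+SEW, 6079 to 16329 with radiation+FTY, 13944 to 26531 with radiation and 1936 to 6174 in control. Of 10 monocyte and macrophage genes tested, 5 rose in radiation against control (Cd68, Itgam, Ccr2, Fcgr1 and Adgre1), 2 fell in radiation+SEW against radiation (Itgam and Ccr2) and 6 rose in radiation+FTY against FTY. In radiation+fTyS and in radiation+FTY against radiation limma called none of the 10, where 3 and 6 had an unadjusted p of at most 0.05. Their summed signal was 9213 to 10772 with radiation+fTyS, 8948 to 11108 with radiation+SEW, 8825 to 10961 with radiation+FTY, 9040 to 12759 with radiation and 6927 to 9084 in control. Ccr2 and Cx3cr1 were lower with SEW and with FTY than in control, and Ccr2, Cx3cr1 and Ms4a7 were higher in radiation+SEW than in SEW. Emilin2 was not called in any of these comparisons. The part of neutrophils, monocytes and macrophages in the Emilin2 result was not tested.

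Eln and Fbln5, the elastic fibre genes with the highest levels, were not called. Elastin itself, Eln, had levels of 9.98, 9.66 and 9.99 with radiation+fTyS, 10.68, 9.98 and 9.96 with radiation+SEW, 9.85, 9.77 and 9.91 with radiation+FTY and 10.16, 10.01 and 10.27 with radiation alone. Without radiation, Eln stood at 9.83, 9.92 and 9.58 with fTyS, 9.81, 9.69 and 9.74 with SEW, 9.97, 9.73 and 9.49 with FTY and 10.12, 9.53, 10.13 and 10.48 in control. All radiation+fTyS and radiation+FTY arrays lay below the radiation arrays, by -0.27 ± 0.20 (adjusted p = 0.632) and -0.30 ± 0.20 (adjusted p = 0.356), and neither was called. Fbln5 encodes a fibulin that guides elastin onto microfibrils. Fbln5 levels were 11.75, 11.32 and 11.67 with radiation+fTyS, 11.67, 11.58 and 11.34 with radiation+SEW, 11.40, 11.48 and 11.42 with radiation+FTY and 11.17, 11.48 and 11.46 with radiation alone. Without radiation, Fbln5 stood at 11.48, 11.47 and 11.52 with fTyS, 11.31, 11.35 and 11.39 with SEW, 11.50, 11.51 and 11.41 with FTY and 11.49, 11.47, 11.44 and 11.53 in control. Its 10 differences ran from -0.13 to 0.21, and the groups overlapped in radiation against control. Emilin1 differed by -0.25 to 0.33 and Fbln1 by -0.35 to 0.73, without a call. In a fit of only the arrays compared Emilin1 was higher in radiation+SEW than in SEW (0.33 ± 0.06, adjusted p = 0.0163). Fbln2 had wider differences, -0.49 to 0.91, and the second widest spread within groups of all members (SD 0.72).

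Of the cross-linking enzymes, Loxl1 was called and Lox was not. Loxl1, needed for elastin cross-links, had levels of 11.33, 11.13 and 11.20 with radiation+fTyS, 11.49, 11.35 and 11.37 with radiation+SEW, 11.16, 11.23 and 11.36 with radiation+FTY and 10.93, 11.23 and 11.26 with radiation alone. Without radiation, Loxl1 stood at 11.27, 11.12 and 11.06 with fTyS, 10.94, 10.71 and 10.90 with SEW, 11.11, 11.12 and 10.69 with FTY and 11.17, 11.20, 11.42 and 11.36 in control. The SEW arrays lay below all control and all radiation+SEW arrays. SEW against control differed by -0.44 ± 0.10 (adjusted p = 0.00882), and by -0.42 ± 0.11, adjusted p = 0.0202 without control replicate 4. Radiation+SEW against SEW differed by 0.55 ± 0.11 (adjusted p = 0.00243), and both calls held without any 1 array. Lox, which cross-links collagen and elastin, had levels of 10.06, 9.44 and 10.26 with radiation+fTyS, 9.98, 9.84 and 9.85 with radiation+SEW, 9.29, 9.16 and 9.68 with radiation+FTY and 10.91, 10.01 and 9.96 with radiation alone. Without radiation, Lox stood at 9.26, 9.32 and 9.06 with fTyS, 10.10, 10.10 and 9.88 with SEW, 9.84, 9.38 and 9.03 with FTY and 9.99, 8.85, 9.16 and 9.94 in control. Control replicates 1 and 4 lay well above control replicates 2 and 3, and radiation overlapped control. Radiation against control differed by 0.81 ± 0.27 (adjusted p = 0.108), which was not called. Without control replicate 4 it was 0.96 ± 0.28 (adjusted p = 0.0472), and 0.96 ± 0.24 (adjusted p = 0.0244) with a replicate block, which takes out the same array. All radiation+FTY arrays were below the radiation arrays, by -0.92 ± 0.29 (adjusted p = 0.0781), without a call.

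Of type VI collagen, a beaded filament network around cells, Col6a1 and Col6a2 were higher in radiation+SEW than in SEW. Col6a1 levels were 10.90, 10.81 and 10.69 with radiation+fTyS, 11.06, 10.90 and 10.88 with radiation+SEW, 10.71, 10.65 and 10.83 with radiation+FTY and 10.76, 10.47 and 10.64 with radiation alone. Without radiation, Col6a1 stood at 10.59, 10.56 and 10.38 with fTyS, 10.55, 10.44 and 10.59 with SEW, 10.44, 10.53 and 10.05 with FTY and 10.60, 10.67, 10.69 and 10.82 in control. For each compound, the arrays with radiation lay above those without. The difference was 0.42 ± 0.10 (adjusted p = 0.0105) for radiation+SEW against SEW and 0.39 ± 0.10 (adjusted p = 0.0187) for radiation+FTY against FTY. The FTY call ended without FTY replicate 3, or radiation+FTY replicate 3 (adjusted p 0.0652 to 0.0931) and with muscle and adipocyte covariates or a fit of only the arrays compared (adjusted p 0.0546 to 0.131). Col6a2 levels were 11.07, 11.23 and 10.93 with radiation+fTyS, 11.33, 11.12 and 11.25 with radiation+SEW, 10.96, 10.82 and 11.08 with radiation+FTY and 10.67, 10.66 and 10.75 with radiation alone. Without radiation, Col6a2 stood at 10.93, 11.01 and 10.53 with fTyS, 10.82, 10.62 and 10.91 with SEW, 10.79, 10.89 and 10.46 with FTY and 10.73, 11.13, 10.98 and 11.15 in control. Every radiation+SEW array lay above all radiation and all SEW arrays. These differences were 0.54 ± 0.13 (adjusted p = 0.0367) and 0.45 ± 0.13 (adjusted p = 0.0241). The call against radiation ended without any 1 of the 6 arrays (adjusted p 0.0597 to 0.132), and that against SEW without SEW replicate 1 or 2, or radiation+SEW replicate 1 or 3 (adjusted p 0.0572 to 0.104). Both also ended with the mean of all probe sets (adjusted p = 0.0679 and 0.0579). Col6a3 levels were 11.28, 11.31 and 11.14 with radiation+fTyS, 11.44, 11.31 and 11.28 with radiation+SEW, 11.04, 10.73 and 11.09 with radiation+FTY and 10.98, 11.06 and 11.09 with radiation alone. Without radiation, Col6a3 stood at 11.26, 11.18 and 10.90 with fTyS, 11.15, 11.14 and 11.11 with SEW, 11.13, 11.25 and 10.71 with FTY and 10.95, 11.29, 11.28 and 11.27 in control. The radiation+SEW arrays exceeded the radiation arrays here too, by 0.30 ± 0.12 (adjusted p = 0.211), with no call. Against SEW, Col6a3 passed in a fit of only the arrays compared (0.21 ± 0.05, adjusted p = 0.038).

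Among the network and fibril-associated collagens, Col8a1 had the largest differences. It encodes a chain of type VIII collagen, a short-chain network collagen of vessel walls and of Descemet's membrane. Col8a1 levels were 8.50, 8.81 and 8.65 with radiation+fTyS, 8.88, 8.92 and 9.33 with radiation+SEW, 8.58, 8.48 and 8.73 with radiation+FTY and 8.14, 8.05 and 8.0 with radiation alone. Without radiation, Col8a1 stood at 8.51, 8.72 and 8.19 with fTyS, 7.92, 7.86 and 7.98 with SEW, 8.15, 7.97 and 7.81 with FTY and 7.97, 8.38, 8.16 and 9.01 in control. All 9 arrays with radiation and a compound exceeded the radiation arrays, and control replicate 4 was the highest control array. Radiation+SEW exceeded radiation by 0.98 ± 0.19 (adjusted p = 0.0124), a fold of 1.97, and SEW by 1.12 ± 0.19 (adjusted p = 0.000849). Radiation+FTY exceeded FTY by 0.62 ± 0.19 (adjusted p = 0.0369). The call against radiation ended without radiation+SEW replicate 3 (adjusted p 0.0696), and that against FTY without FTY replicate 2 or 3, or radiation+FTY replicate 1, 2 or 3 (adjusted p 0.0606 to 0.113) and with quantile normalization, the mean of all probe sets or muscle and adipocyte covariates (adjusted p 0.0503 to 0.233). A second probe set of Col8a1 differed by 0.69 and 0.71 in the SEW comparisons, and a dim one, with a mean of 5.77, by -0.05 and -0.13.

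Col16a1, a fibril-associated collagen of type XVI, had levels of 8.97, 8.89 and 9.13 with radiation+fTyS, 9.23, 9.06 and 9.29 with radiation+SEW, 9.12, 9.13 and 9.09 with radiation+FTY and 8.78, 8.90 and 9.11 with radiation alone. Without radiation, Col16a1 stood at 8.72, 8.80 and 8.60 with fTyS, 8.61, 8.69 and 8.74 with SEW, 8.69, 8.96 and 8.47 with FTY and 8.84, 8.97, 8.93 and 9.15 in control. Radiation+SEW lay wholly above SEW, and radiation+FTY wholly above FTY, by 0.51 ± 0.11 (adjusted p = 0.00418) and 0.41 ± 0.11 (adjusted p = 0.0196). The FTY call ended without FTY replicate 1 or 3, or radiation+FTY replicate 1 or 2 (adjusted p 0.0539 to 0.0943) and with a fit of only the arrays compared (adjusted p 0.109). Col12a1, which decorates type I fibrils, had levels of 10.09, 9.62 and 9.98 with radiation+fTyS, 9.72, 9.88 and 9.78 with radiation+SEW, 9.59, 9.61 and 9.54 with radiation+FTY and 9.46, 9.83 and 10.14 with radiation alone. Without radiation, Col12a1 stood at 9.69, 9.87 and 9.61 with fTyS, 9.33, 9.53 and 9.38 with SEW, 9.74, 10.02 and 9.74 with FTY and 9.82, 10.03, 9.73 and 9.88 in control. The 3 SEW arrays were the lowest of the unirradiated lungs. SEW against control differed by -0.45 ± 0.13 (adjusted p = 0.0243), and by -0.45 ± 0.14, adjusted p = 0.041 without control replicate 4. This call ended without control replicate 2, or SEW replicate 1 or 3 (adjusted p 0.0691 to 0.114) and with the mean of all probe sets or muscle and adipocyte covariates (adjusted p 0.0677 to 0.541); the mean of its 4 probe sets differed by -0.07. Col14a1, another fibril-associated collagen, had levels of 9.77, 10.54 and 10.07 with radiation+fTyS, 10.16, 10.37 and 9.82 with radiation+SEW, 10.01, 9.31 and 10.09 with radiation+FTY and 9.20, 9.51 and 9.57 with radiation alone. Without radiation, Col14a1 stood at 10.21, 10.12 and 9.82 with fTyS, 9.99, 9.67 and 10.07 with SEW, 9.89, 9.86 and 9.74 with FTY and 9.67, 10.29, 9.73 and 9.79 in control. The radiation arrays lay below all control, radiation+fTyS and radiation+SEW arrays. These differences, -0.44 ± 0.20 (adjusted p = 0.261), 0.70 ± 0.21 (adjusted p = 0.138) and 0.69 ± 0.21 (adjusted p = 0.0959), were not called. With muscle and adipocyte covariates all 3 passed, at -0.41 ± 0.12 (adjusted p = 0.0469), 0.56 ± 0.13 (adjusted p = 0.0363) and 0.52 ± 0.13 (adjusted p = 0.0395).

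Of the adhesive and matricellular proteins, Tnc and Sparc were higher in radiation+SEW than in SEW. Tenascin C, Tnc, is made at sites of repair. Tnc levels were 8.48, 8.34 and 8.07 with radiation+fTyS, 8.91, 8.67 and 8.88 with radiation+SEW, 8.25, 7.94 and 8.28 with radiation+FTY and 9.01, 8.42 and 8.68 with radiation alone. Without radiation, Tnc stood at 8.23, 8.16 and 7.53 with fTyS, 7.92, 8.36 and 7.98 with SEW, 8.35, 8.14 and 9.10 with FTY and 8.16, 8.48, 8.37 and 8.51 in control. FTY replicate 3 was the highest of all 25 arrays, and radiation+SEW lay above all SEW arrays. That difference was 0.73 ± 0.22 (adjusted p = 0.0248), and the call ended without SEW replicate 1 or 3, or radiation+SEW replicate 1 or 3 (adjusted p 0.0692 to 0.102) and with the mean of all probe sets (adjusted p 0.0636). Sparc, a collagen-binding glycoprotein, varied little. Sparc levels were 13.23, 13.08 and 13.14 with radiation+fTyS, 13.18, 13.17 and 13.19 with radiation+SEW, 12.99, 12.95 and 13.06 with radiation+FTY and 13.21, 13.09 and 13.14 with radiation alone. Without radiation, Sparc stood at 13.04, 13.05 and 13.00 with fTyS, 13.00, 13.03 and 12.97 with SEW, 13.02, 13.11 and 12.84 with FTY and 13.08, 13.00, 13.02 and 13.25 in control. Radiation+SEW exceeded every SEW array, by 0.18 ± 0.06 (adjusted p = 0.0489). This call ended without any 1 of the 6 arrays (adjusted p 0.072 to 0.134), and under 5 other settings (adjusted p 0.0601 to 0.619).

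Fibronectin, Fn1, on which collagen fibrils are laid down, had levels of 12.00, 11.90 and 11.88 with radiation+fTyS, 12.09, 11.83 and 11.72 with radiation+SEW, 11.72, 11.69 and 11.98 with radiation+FTY and 12.29, 11.92 and 11.73 with radiation alone. Without radiation, Fn1 stood at 11.57, 11.90 and 11.31 with fTyS, 11.83, 11.81 and 11.91 with SEW, 11.56, 11.53 and 11.09 with FTY and 11.52, 11.44, 11.14 and 11.82 in control. Control replicate 4 alone among the controls overlapped the radiation arrays. Radiation against control differed by 0.50 ± 0.16 (adjusted p = 0.0865), which was not called. Without control replicate 4 it was 0.61 ± 0.16 (adjusted p = 0.0244), and 0.61 ± 0.14 (adjusted p = 0.0138) with a replicate block, which takes out the same array. With control replicate 4 kept and the mean of all probe sets it was 0.59 ± 0.16 (adjusted p = 0.0353). Periostin, Postn, a matricellular partner of type I collagen, had levels of 12.41, 12.04 and 12.25 with radiation+fTyS, 12.22, 12.28 and 12.06 with radiation+SEW, 11.86, 11.80 and 11.96 with radiation+FTY and 12.16, 12.03 and 12.21 with radiation alone. Without radiation, Postn stood at 11.91, 11.87 and 11.91 with fTyS, 11.98, 12.12 and 12.05 with SEW, 12.02, 12.05 and 11.71 with FTY and 12.07, 12.01, 12.04 and 12.18 in control. Radiation+FTY was the lowest irradiated group, and no difference from radiation, control or compound alone was called.

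The small leucine-rich proteoglycans, which bind collagen and limit fibril width, were not called by limma in the 10 comparisons, where 2 of their 30 values had an unadjusted p of at most 0.05. Bgn had the narrowest spread within groups (SD 0.07) and Lum the widest (SD 0.97) of all members. Bgn levels were 12.99, 12.82 and 12.94 with radiation+fTyS, 13.00, 12.93 and 12.94 with radiation+SEW, 12.74, 12.90 and 12.89 with radiation+FTY and 12.86, 12.84 and 12.90 with radiation alone. Without radiation, Bgn stood at 12.88, 12.73 and 12.79 with fTyS, 12.84, 12.86 and 12.84 with SEW, 12.82, 12.87 and 12.63 with FTY and 12.88, 12.80, 12.83 and 12.92 in control. All groups lay within a narrow band. Dcn levels were 11.89, 12.81 and 12.12 with radiation+fTyS, 12.36, 12.58 and 11.96 with radiation+SEW, 12.51, 11.76 and 12.65 with radiation+FTY and 11.97, 12.09 and 11.95 with radiation alone. Without radiation, Dcn stood at 12.74, 12.84 and 12.24 with fTyS, 12.76, 12.26 and 12.75 with SEW, 12.53, 12.16 and 12.36 with FTY and 11.85, 12.43, 12.09 and 11.83 in control. The groups overlapped, and radiation+fTyS replicate 2 was the highest irradiated array. Lum had larger differences, 1.50 ± 0.74 (adjusted p = 0.307) for radiation+SEW and 1.24 ± 0.74 (adjusted p = 0.527) for radiation+fTyS against radiation, with levels in radiation+fTyS of 8.46, 11.08 and 9.02. With muscle and adipocyte covariates Lum was higher in radiation+SEW than in SEW (0.83 ± 0.23, adjusted p = 0.0156). The median SD within groups was 0.18 over the 36 members and 0.13 over all genes tested.

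The compounds were set against each other at the same dose in irradiated and in unirradiated lung, 6 pairs in all. FTY720 is phosphorylated in the body, (S)-FTY-phosphonate is an analogue of that phosphate with a phosphonate in its place, and SEW-2871 is not built like sphingosine. In irradiated lung, Postn was the single call: it was 0.37 ± 0.09 (adjusted p = 0.0319) higher with radiation+fTyS than with radiation+FTY, at 12.24 ± 0.19 against 11.87 ± 0.08 (n = 3 each), where 3.95% of all genes were called. This call ended without radiation+fTyS replicate 1 or 3, or radiation+FTY replicate 1 or 2 (adjusted p 0.0849 to 0.184) and with median centring or a fit of only the arrays compared (adjusted p 0.0636 to 0.25). For the same pair, Col1a2 differed by 0.33 (95% interval 0.12 to 0.53) and Emilin2 by -0.75 (95% interval -1.35 to -0.15), without a call.

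Between radiation+FTY and radiation+SEW limma called no gene of the 12937 (0%). At an unadjusted p of at most 0.05 there were 15 members, against 8.01% of all genes. The arrays of these groups did not overlap for 21 members, against 15.4% of all genes, and 20 of these members were lower with radiation+FTY, against 8.04%. Col1a1 differed by -0.38 (95% interval -0.70 to -0.07), Col3a1 by -0.44 (95% interval -0.72 to -0.15), Col5a2 by -0.53 (95% interval -0.87 to -0.18) and Col4a4 by -0.37 (95% interval -0.55 to -0.18). The median over the 36 members was -0.27, against -0.0026 over all genes. These members vary together, so they do not count as separate pieces of evidence.

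Radiation+fTyS against radiation+SEW also gave no call of any gene (0%), with 2 members at an unadjusted p of at most 0.05 (10.9% of all genes). Col1a1 differed by -0.24 (95% interval -0.55 to 0.07) and Col27a1 by 0.01 (95% interval -0.22 to 0.24). These intervals do not show that the compounds act alike. In unirradiated lung no member was called for fTyS against SEW (1.55% of all genes), fTyS against FTY (0%) or FTY against SEW (0%). Unadjusted p-values of at most 0.05 were reached by 6, 4 and 3 members in this order, against 17.5%, 5.94% and 9.11% of all genes. Col1a1 differed by 0.43 (95% interval 0.12 to 0.74) between fTyS and SEW and by 0.10 (95% interval -0.21 to 0.41) between FTY and SEW.

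**Figure D4:**
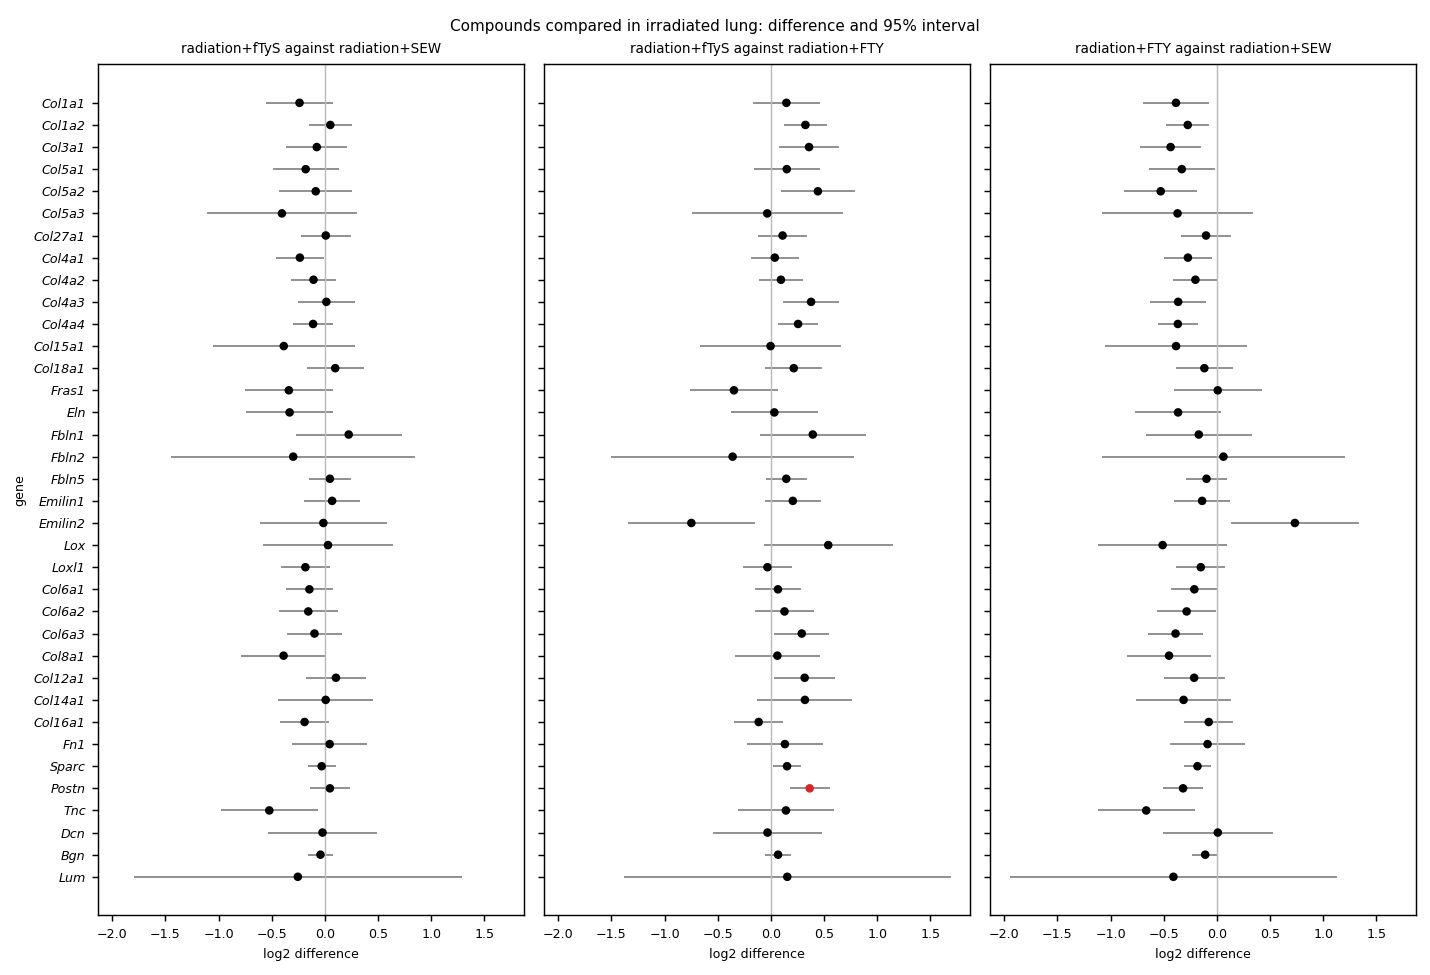
Log2 difference (points) and 95% interval (lines) of each of the 36 members between compounds in irradiated lung, on 1 common axis, for the 3 pairs of groups of 3 arrays. The red point is Postn, the only call; 32 of 36 members lie below 0 in radiation+FTY against radiation+SEW.

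The interaction tests ask whether the effect of radiation differed between lung with a compound and lung without. With SEW, 10 of 36 members passed (13.9% of all genes): the effect was higher for Fras1, Col8a1, Col1a1, Col6a2, Col27a1, Loxl1, Col3a1, Col16a1 and Col6a1, and lower for Emilin2. For Fras1 the effect of radiation was 0.86 under SEW and -0.85 without a compound, an interaction of 1.71 ± 0.27 (adjusted p = 0.00106). For Col1a1 it was 0.89 under SEW and -0.25 without, an interaction of 1.14 ± 0.20 (adjusted p = 0.00213). With FTY, 3 of 36 passed (6.84% of all genes), Fras1, Col8a1 and Col27a1, all higher. The Col8a1 interaction with FTY, 0.93 ± 0.26 (adjusted p = 0.0376), ended when any 1 of 9 of its 13 arrays was left out (adjusted p up to 0.0779) and under 6 other settings (adjusted p 0.0506 to 0.197), and was 0.42 with probe sets averaged; that of Col27a1 ended without radiation+FTY replicate 1 (adjusted p 0.0519). With SEW, Col3a1 ended when any 1 of 5 of the 13 arrays was left out (adjusted p up to 0.0764). Col6a1 ended when any 1 of 4 was (up to 0.0708) and with median centring (adjusted p 0.0739). Col16a1 ended when any 1 of 3 was (up to 0.0615) and with quantile normalization or median centring (adjusted p 0.0547 to 0.0645). With fTyS, 2 of 36 passed (1.35% of all genes): Col27a1 was higher, and Emilin2 was lower, with an effect of -0.32 under fTyS and 1.86 without. Both ended in a fit of only the arrays compared (adjusted p = 0.0792 and 0.0721). With the mean of all probe sets, Col1a2 (0.64, adjusted p = 0.0165) and Col5a2 (0.79, adjusted p = 0.0176) also passed with SEW. Under that setting Tnc passed with FTY and was lower (-0.94, adjusted p = 0.0432). Other settings added further members that are not named here. The 3 tests share the radiation and control arrays, and none of the 3 counts changed without control replicate 4.

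Within groups, some members varied together from mouse to mouse. Deviations of the 25 arrays from their group means were correlated for 47 relations fixed with these data known, with p-values from 100000 permutations, of which 1e-05 is the smallest they can give. The permutations moved deviations freely over all 25 arrays, although those of a group are tied by its mean. All p-values of these correlations therefore tend to be too small. Dcn and Lum had a Pearson r of 0.95 and a Spearman rho of 0.94 (adjusted p = 4.7e-05 and 6.71e-05), with r = 0.94 without the 2 arrays farthest in Dcn. Col4a1 and Col4a2, whose shared start region is printed above, had r = 0.86 and rho = 0.78 (adjusted p = 4.7e-05 and 0.000104; r = 0.79 without 2 arrays). The other neighbours were Col4a3 and Col4a4 (r = 0.83, rho = 0.73; adjusted p = 4.7e-05 and 0.000342; r = 0.78 without 2), Col3a1 and Col5a2 (r = 0.78, rho = 0.82; adjusted p = 4.7e-05 and 6.71e-05; r = 0.72 without 2) and Col6a1 and Col6a2 (r = 0.78, rho = 0.72; adjusted p = 4.7e-05 and 0.000329; r = 0.71 without 2). Chains of 1 protein on different chromosomes also varied together: Col1a1 and Col1a2 had r = 0.76 and rho = 0.70 (adjusted p = 8.55e-05 and 0.000666; r = 0.75 without 2), and Col6a1 and Col6a3 had r = 0.75 and rho = 0.67 (adjusted p = 0.000117 and 0.00122; r = 0.60 without 2). The median r over all 630 pairs of members was 0.31, and 75 pairs had an r of at least 0.7. A high r was thus not confined to neighbours.

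The adipocyte genes split the members. Of 36 members, 17 had an adjusted p of at most 0.05 for a Pearson correlation with the adipocyte mean within groups, 10 of them positive and 7 negative. Since these permutation p-values tend to be too small, the count can be too high. Fbln2 (r = 0.87, rho = 0.86), Lum (0.86 and 0.86), Dcn (0.84 and 0.85) and Col15a1 (0.83 and 0.86) rose with it, each with an adjusted p of 4.7e-05 and 6.71e-05 and r of at least 0.81 without the 2 farthest arrays. Col4a3 fell with it (r = -0.80, rho = -0.78, adjusted p = 4.7e-05 and 6.71e-05; r = -0.75 without 2), as did Col4a4 (r = -0.72, rho = -0.66; adjusted p = 0.000181 and 0.00132; r = -0.66 without 2). Col1a1 had r = 0.10 and rho = 0.04 (adjusted p = 0.709 and 0.882; r = 0.19 without 2). The mean adipocyte level ran from 6.49 to 10.63 with radiation+fTyS, 7.26 to 9.71 with radiation+SEW, 8.71 to 10.37 with radiation+FTY and 6.94 to 7.83 with radiation. It ran from 7.23 to 10.14 with fTyS, 7.81 to 10.59 with SEW, 7.29 to 10.16 with FTY and 6.69 to 8.71 in control. Col8a1 correlated with the mesothelial mean (r = 0.51, rho = 0.62; adjusted p = 0.0221 and 0.00316; r = 0.50 without 2), and Fras1 did by rho only (r = 0.43, rho = 0.60; adjusted p = 0.0569 and 0.00485; r = 0.48 without 2). Emilin2 and the neutrophil mean, once group means were removed, had r = 0.35 and rho = 0.31 (adjusted p = 0.129 and 0.192; r = 0.22 without 2), and with the monocyte and macrophage mean r = 0.35 and rho = 0.34 (adjusted p = 0.129 and 0.146; r = 0.23 without 2). Emilin2 had a higher r with the adipocyte mean, at r = 0.53 and rho = 0.52 (adjusted p = 0.0167 and 0.0188; r = 0.46 without 2).

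**Figure D5:**
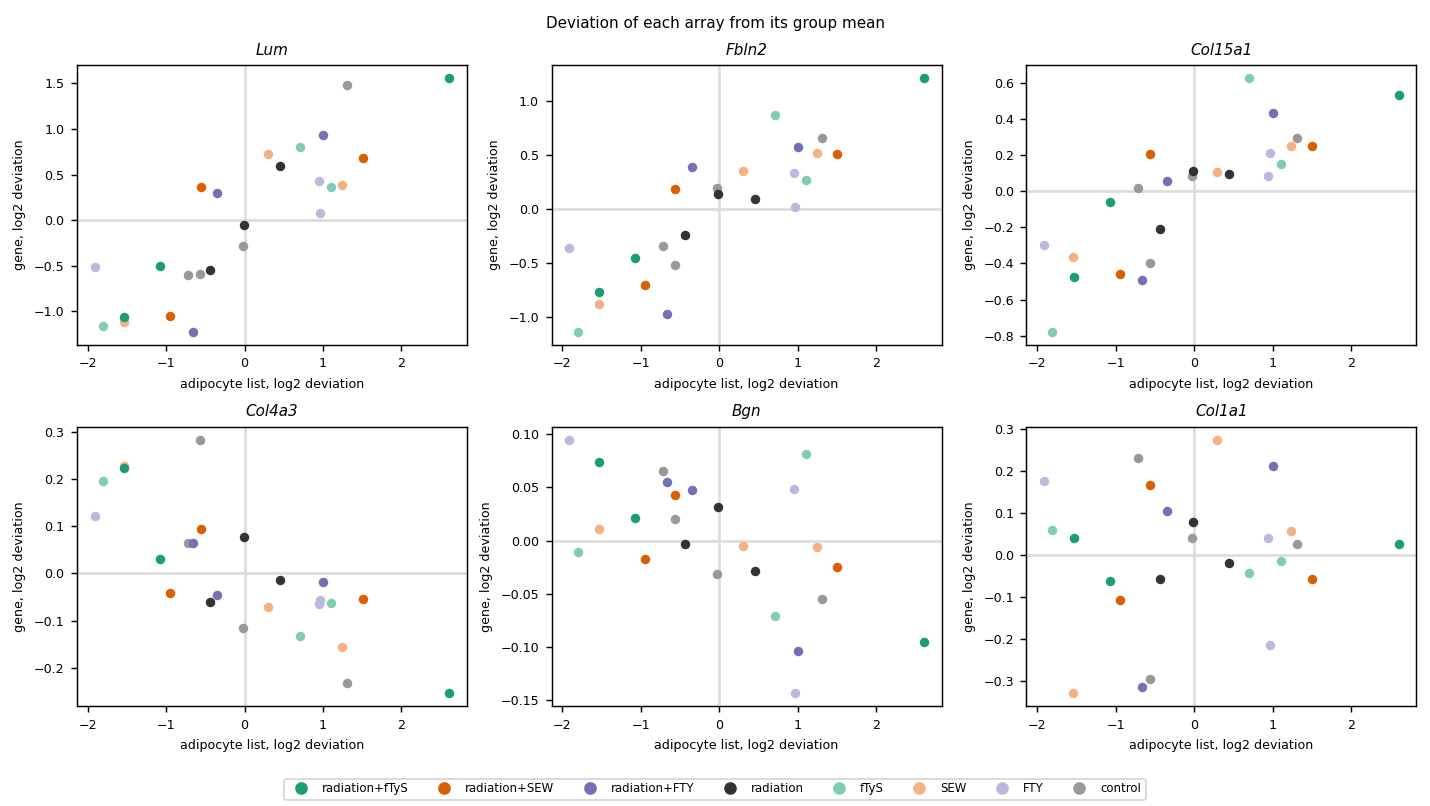
Deviation of each of the 25 arrays (points, coloured by group) from its group mean, for 6 members (vertical axes, log2, each with its own range) against the mean of the adipocyte genes (horizontal axes, log2). Lum, Fbln2 and Col15a1 rise with the adipocyte genes, Col4a3 and Bgn fall, and Col1a1 has no slope to see (r = 0.10).

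Other matrix genes were counted in 6 further lists of genes that are no members; those named as higher, lower, raised or lowered passed the test. Of 16 other elastic fibre and microfibril genes tested, 3 were higher in radiation+SEW than in radiation: Mfap5, a microfibril protein (0.68 ± 0.13), the latent TGF-beta binding protein Ltbp3 (0.36 ± 0.09) and the fibulin Efemp1 (0.29 ± 0.04). Mfap5 (0.57 ± 0.13) and Efemp1 (0.26 ± 0.04) were higher with radiation+fTyS, and Efemp1 with radiation+FTY (0.20 ± 0.04). Against control, radiation lowered Efemp1 by a log2 fold change of -0.19 ± 0.04. Of 19 other proteoglycans and matricellular genes, radiation raised versican, Vcan (1.26 ± 0.27), and Tgfbi (0.70 ± 0.12), and lowered Thbs3 (-0.43 ± 0.10). SEW lowered Matn4 (-0.87 ± 0.15) and Thbs3 (-0.53 ± 0.10). Radiation+FTY had lower connective tissue growth factor, Ccn2 (-0.57 ± 0.12), and thrombospondin 1, Thbs1 (-1.36 ± 0.25), than radiation, and radiation+SEW had lower Tgfbi (-0.53 ± 0.13).

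Frem1, a partner of Fras1 in the Fraser complex, was 1 of 4 tested genes of its list. It was lower with SEW (-0.99 ± 0.16) and with FTY (-0.60 ± 0.16) than in control, and higher in radiation+SEW than in SEW (1.22 ± 0.17). Of 17 laminins, nidogens and other basement membrane genes, SEW lowered Lamc1 (-0.27 ± 0.07) and Agrn (-0.21 ± 0.06), FTY lowered Nid1 (-0.27 ± 0.07) and Lamc1 (-0.27 ± 0.07), and radiation lowered Hmcn1 (-0.63 ± 0.16). In radiation+SEW against SEW, 3 of the 17 were higher: perlecan, Hspg2 (0.51 ± 0.13), Lamc1 (0.36 ± 0.07) and Agrn (0.22 ± 0.07). Of 22 genes of collagen folding and processing, radiation raised Plod3, a lysyl hydroxylase (0.36 ± 0.10). Radiation+SEW had higher Pcolce, an enhancer of procollagen cleavage (0.38 ± 0.08), and radiation+FTY higher P3h4 (0.50 ± 0.12), than radiation. SEW raised Fkbp14 (0.84 ± 0.19) and the collagen chaperone Serpinh1 (0.40 ± 0.11) and lowered the collagen galactosyltransferases Colgalt1 (-0.44 ± 0.06) and Colgalt2 (-0.52 ± 0.10). Of 10 other collagens, SEW lowered Col4a5 (-0.27 ± 0.08) and raised Col11a2 (0.34 ± 0.09), and radiation+SEW exceeded SEW in Col8a2 (0.43 ± 0.11) and Col4a5 (0.25 ± 0.08). With control replicate 4 left out, all 6 calls of other matrix genes for radiation against control passed, as did 10 of 13 for SEW against control, where Col4a5 (adjusted p = 0.0512), Agrn (0.0689) and Ltbp4 (0.0942) did not. None of the 5 for FTY against control passed then, with adjusted p from 0.0518 for Lamc1 to 0.104 for Frem1.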

How the data were processed

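Total RNA (6 µg) from whole mouse lung was labelled and hybridised to Affymetrix expression arrays, per the labels' protocols. The authors deposited signal intensities for 45101 probe sets, made with GCOS, per the submitters' processing notes; the summary and scaling method is not given in the sources used here. Array medians of the deposited signal were 118.33 to 129.58, its lowest value was 0.53, and 627 to 783 probe sets of an array stood at exactly 1, so low levels carry a floor. No pair of arrays was identical, and 0 columns lacked a sample.

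Of the probe sets, 64 were controls, 34945 carried 1 gene symbol, 932 several and 9160 none in the platform annotation, which can be old. Levels were log2(signal + 16), with no further scaling, and fold changes are on that scale, which understates changes of dim genes. Each gene was represented by its single-symbol probe set with the highest mean. Genes with a mean over the 40th percentile of probe sets (6.49) were tested. limma 3.58.1 in R 4.3.3 fitted 8 group means (lmFit, eBayes with trend, 17 residual degrees of freedom), and p-values were adjusted over 12937 genes by the Benjamini-Hochberg method in each of 19 comparisons. The fit was tested on simulated data for radiation against control, where it recovered 91% of 200 genes changed by 1 on the log2 scale among 12937, with 7.14% of calls false. The simulated noise was independent between genes, whereas the members vary together, and many differences called here are smaller than 1. These rates therefore do not describe the reported calls. Precision is set by 3 or 4 arrays a group.

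The members and all lists were chosen with earlier results of these data known. Values on single arrays are given for members called in any of the 10 comparisons of radiation or compound, the 2 members of each role with the highest mean, and Fn1; of genes that are no members, up to 4 called genes of a list are named in a comparison. The p53 list was added after the data were seen. Same-numbered arrays, numbered in the titles, deviated together (r over 0.1 in every pair) in 5 of 16 comparisons: radiation with control, radiation+fTyS with radiation, fTyS with control, radiation+fTyS with fTyS, and FTY with SEW. Alternatives were pseudocounts of 1 and 64, quantile and median scaling, averaging every probe set of a gene, no filter or a 60th percentile one, only the arrays compared, muscle and adipocyte covariates, the replicate block, and each array left out. Promoter windows and gene order are from RefSeq on GRCm38.p6; 25 members matched a window.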

Additional observations from a re-analysis of the deposited data

Results flagged for a closer look

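Among the 36 members, 4 had a control array far from the other 3, where chance gives about 1 in 20. Col5a2 stood at 10.9 on control replicate 4, with the nearest control array at 10.2. Lum stood at 10.22 on control replicate 2, with the nearest at 8.46. On control replicate 1, Col27a1 stood at 8.92 (nearest 9.23) and Col6a3 at 10.95 (nearest 11.27). Groups of 3 arrays were not examined in this way.

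The effect of radiation differed between lung with and without a compound, by the interaction term of the limma fit, for 10 members in 15 tests. Under SEW it was higher for Fras1 by 1.71 ± 0.27 (adjusted p = 0.00106), for Col8a1 by 1.44 ± 0.26 (adjusted p = 0.00224), for Col1a1 by 1.14 ± 0.20 (adjusted p = 0.00213), for Col6a2 by 0.75 ± 0.18 (adjusted p = 0.0113) and for Col27a1 by 0.74 ± 0.15 (adjusted p = 0.00481). It was also higher under SEW for Loxl1 by 0.70 ± 0.15 (adjusted p = 0.00547), for Col3a1 by 0.64 ± 0.19 (adjusted p = 0.0278), for Col16a1 by 0.55 ± 0.15 (adjusted p = 0.02) and for Col6a1 by 0.49 ± 0.14 (adjusted p = 0.028). For Emilin2 the interaction with SEW was -1.60 ± 0.39 (adjusted p = 0.0124). Under FTY it was 1.34 ± 0.27 (adjusted p = 0.00856) for Fras1, 0.93 ± 0.26 (adjusted p = 0.0376) for Col8a1 and 0.62 ± 0.15 (adjusted p = 0.0211) for Col27a1. The Col8a1 value under FTY ended when any 1 of 9 of its 13 arrays was left out and under 6 other settings, and was 0.42 (adjusted p = 0.197) with probe sets averaged. Under SEW, Col3a1, Col6a1 and Col16a1 ended when any 1 of 5, 4 and 3 of the 13 arrays was left out, in this order. Under fTyS it was 0.87 ± 0.15 (adjusted p = 0.0146) for Col27a1 and -2.18 ± 0.39 (adjusted p = 0.0167) for Emilin2. SE follow the ± sign, and the control and radiation arrays enter all 3 interactions.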

How the results depend on the processing

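No called value changed sign under any setting. Of 50 called values of members, 22 passed the test with each array left out in turn. The 7 of Fras1 have no value with the filter at the 60th percentile or with probe sets averaged, since Fras1 did not pass the filter there. Of the other 43, 19 passed under all other settings and 16 of these also with each array left out. Counts of members called moved by over 1.5 times in these cases. Radiation against control gave 1 with the filter at the 60th percentile and 1 with only the arrays compared, and 4 with a replicate block. Radiation+fTyS against radiation gave 3 with muscle and adipocyte covariates and 0 with only the arrays compared. Radiation+SEW against radiation gave 2 with probe sets averaged and 2 with only the arrays compared. Radiation+FTY against radiation gave 0 with the 60th percentile, 0 with covariates and 0 with only the arrays compared. SEW against control gave 3 with only the arrays compared. FTY against control gave 0 with probe sets averaged, 0 with a replicate block and 0 with only the arrays compared. Radiation+fTyS against fTyS gave 0 with probe sets averaged, 2 with a replicate block and 0 with only the arrays compared. Radiation+FTY against FTY gave 3 with quantile normalization, all higher, and 3 with only the arrays compared. Radiation+fTyS against radiation+FTY gave 0 with median centring, 2 with probe sets averaged, 2 with a replicate block, 4 with covariates and 0 with only the arrays compared. The interaction with fTyS gave 0 with only the arrays compared, a fit with fewer residual degrees of freedom. The other causes were not tested. The replicate block moved no other count by over 1.5 times, and the array closest to each of the 25 bore the same number for 7.

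With each array left out in turn, counts ranged from 1 to 4 for radiation against control, 0 to 1 for radiation+fTyS, 1 to 3 for radiation+SEW and 0 to 1 for radiation+FTY against radiation. They ranged from 0 to 1 for fTyS, 2 to 8 for SEW and 0 to 3 for FTY against control. Against the compound alone they ranged from 0 to 2 with fTyS, 8 to 10 with SEW and 2 to 3 with FTY. Between compounds they were 0 to 3 for radiation+fTyS against radiation+FTY, 0 to 1 for fTyS against SEW, and 0 to 0 for the other 4 pairs. Interactions gave 2 to 2 with fTyS, 7 to 12 with SEW and 1 to 6 with FTY.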
